A study of Homo sapiens with 11 samples.

Results

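The 10 genes described here encode carriers that move amino acids across the plasma membrane: SLC7A5, SLC3A2, SLC1A5, SLC1A4, SLC7A1, SLC7A6, SLC38A1, SLC38A2, SLC6A9 and SLC43A1. They were chosen by symbol from the 26485 gene symbols of the count tables, and all 10 were found at both time points. The libraries were made from Caki-1-SR clone 1, as the study names it. It is a subline of the human clear cell renal cell carcinoma line Caki-1 that resists the kinase inhibitor sunitinib. The line is kept in 1 µM sunitinib, so every group shares that drug. The ODC groups received Rapta-C at 2 µM, erlotinib at 1 µM, metformin at 1 µM and parthenolide at 5 µM for 24 h (3 libraries) or 2 h (3 libraries). The CTRL groups, untreated or sham-treated in the study's text, comprised 3 libraries at 24 h and 2 libraries at 2 h, 11 libraries in all. Rapta-C is a ruthenium compound, erlotinib inhibits the EGFR kinase, metformin is an anti-diabetic drug and parthenolide is a plant compound. The comparison of ODC with CTRL asks how the drug combination altered the RNA of these resistant cells.

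Amino acid carriers supply protein synthesis, glutathione and the mTORC1 kinase complex, which senses leucine and arginine. The LAT1 carrier is a heterodimer of the light chain SLC7A5 and the heavy chain SLC3A2, and it takes up leucine and other large neutral amino acids in exchange for intracellular glutamine. Glutamine itself enters through sodium-dependent carriers such as SLC1A5, SLC38A1 and SLC38A2. When amino acids run short, the kinase GCN2 raises translation of the transcription factor ATF4, which induces many transporter, synthetase and serine synthesis genes. ATF4, with a C/EBP partner, binds a composite element called CARE, whereas MYC binds the E-box. Clear cell renal carcinoma cells are known for altered use of glutamine and lipids.

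Promoter sequence was read from RefSeq (GRCh38.p14) for 9 of the 10 genes at the start of the MANE Select transcript, with 250 bases before and 50 bases from the start on. No such window was matched for SLC38A1. The letters TGATGNAA, the core of CARE, were searched on both strands and were present in 2 of the 9 windows, compared with 3.62% of the 35116 windows of the same length over all RefSeq genes. The E-box letters CACGTG were in 2 of the 9 windows, compared with 7.26% of all windows. No window of the 9 held both. The 3 stretches of 170 bases below run from 150 bases before the start to 20 bases from it on, and are shown because they hold a match in SLC1A4, the gene with the smallest p among the 10 at 24 h, in SLC7A1, and in SLC7A5, the most abundant of the 10 per length. Capitals mark the match, at position -7 in SLC1A4 (minus strand), position 8 in SLC7A1 and position -130 in SLC7A5, where position 1 is the first transcribed base. The fourth match, an E-box in SLC43A1, lies at position -112. SLC1A4 is at chr2:64989249-64989418 on the plus strand, SLC7A1 at chr13:29595669-29595838 on the minus strand and SLC7A5 at chr16:87869488-87869657 on the minus strand. The motifs were chosen with results of these data known, and a match is a description of the letters only.
SLC1A4: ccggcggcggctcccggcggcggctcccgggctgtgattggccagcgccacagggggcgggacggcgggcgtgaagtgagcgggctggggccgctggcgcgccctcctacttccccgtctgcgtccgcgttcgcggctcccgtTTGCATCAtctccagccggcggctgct
SLC7A1: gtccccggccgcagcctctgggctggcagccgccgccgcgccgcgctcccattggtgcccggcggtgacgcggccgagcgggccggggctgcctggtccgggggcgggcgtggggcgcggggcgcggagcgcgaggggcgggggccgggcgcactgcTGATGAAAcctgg
SLC7A5: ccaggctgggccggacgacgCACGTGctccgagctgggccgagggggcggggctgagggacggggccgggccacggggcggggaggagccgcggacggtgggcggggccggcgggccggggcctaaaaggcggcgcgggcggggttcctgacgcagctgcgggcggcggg

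The libraries summed to between 17785229 and 20882856 counts at 24 h and between 25782895 and 31118349 counts at 2 h. The time points were labelled with different months, so time and labelled month cannot be told apart, and ODC was compared with CTRL within each time point. Of 12 renal epithelial markers, 7 to 10 exceeded 1 CPM (counts scaled to library size with TMM factors) in each library. PAX8, KRT8, KRT18 and HAVCR1 were among them, whereas PAX2 and CA12 were below 1 CPM in every library. CTRL library 1 at 2 h stood apart. It held 6 of 8 fibroblast markers above 1 CPM with a summed level of 327 CPM, whereas the other 2 h libraries held 2 of 8 with sums between 137 and 169 CPM. COL3A1 was at 41.8 CPM in that library and at no more than 0.19 CPM in the other 10. Its extra transcripts were not of fibroblast markers alone. EPCAM was at 3.87 CPM there and at no more than 0.874 CPM in the other 10. KRT19 was at 1.86 CPM against no more than 0.0971 CPM, and GLUL at 2.32 CPM against 0. Endothelial markers summed to at most 1.31 CPM in any library, and T cell and monocyte markers to at most 17.0 CPM. Both of these highest sums were in CTRL library 1 at 2 h. ODC library 6 at 24 h resembled CTRL library 5 (standard deviation of the log2 differences over genes 0.379) more than it resembled ODC library 4 (0.548). The medians of the 10 carriers and several single-gene results are given with and without these libraries.

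Levels between genes were compared per kilobase of the MANE Select transcript, as CPM per kb. In CTRL at 24 h the order was SLC7A5 (374 ± 25.8), SLC3A2 (287 ± 10.0), SLC1A5 (229 ± 17.2), SLC38A2 (113 ± 3.68), SLC38A1 (68.8 ± 3.95), SLC7A1 (36.0 ± 0.845), SLC7A6 (25.9 ± 3.60), SLC1A4 (12.6 ± 3.28), SLC6A9 (1.70 ± 0.553) and SLC43A1 (0.573 ± 0.0584), each as mean ± SD of CPM per kb with n = 3. No neighbours in this order overlapped. The order of the means was the same in the other 3 groups. In ODC at 24 h the libraries of SLC38A2 overlapped those of SLC38A1, and those of SLC7A1 overlapped those of SLC7A6. At 2 h, in both groups, SLC7A5 overlapped SLC3A2, SLC7A1 overlapped SLC7A6 and SLC6A9 overlapped SLC43A1. Per kb, the chains of the LAT1 heterodimer were thus the most abundant of the 10 transcripts. The place of SLC3A2 depended on the division by length. In CTRL at 24 h its mean of 542 CPM was below those of SLC1A5 (660 CPM) and SLC38A1 (557 CPM). The ratio of SLC7A5 to SLC3A2 per kb lay between 1.20 and 1.35 in the 6 libraries at 24 h. In the 5 libraries at 2 h it lay between 1.08 and 1.47. SLC43A1 had only 11 to 32 counts per library and SLC6A9 20 to 143, so their values carry the most counting error.

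At 24 h, no carrier passed the adjusted threshold. SLC1A4 was the single gene of the 10 whose ODC libraries all lay below the CTRL libraries, as was so for 8.52% of all genes. Among the 10 genes, 7 had a lower and 3 a higher mean fitted level after ODC, with a median log2 fold change of -0.25 against 0.00089 over all 12689 genes tested. The 3 with positive estimates were SLC7A5, SLC3A2 and SLC7A6, which are the heavy chain and both of the light chains among the 10 that pair with it. The test was edgeR's quasi-likelihood F test, two-sided, with Benjamini-Hochberg adjustment over all genes tested. It called 0 of the 10 at an adjusted p under 0.05, where 24 genes or 0.189% of all genes were called, and 1 of the 10 at an unadjusted p under 0.05, where 12.2% of all genes passed. The study's looser rule, an unadjusted p under 0.05 with a fold change of at least 2, held for 0 of the 10 and for 2.35% of all genes. Without ODC library 6 the median of the 10 was -0.41, and without ODC library 2 it was -0.13.

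**Figure D1:**
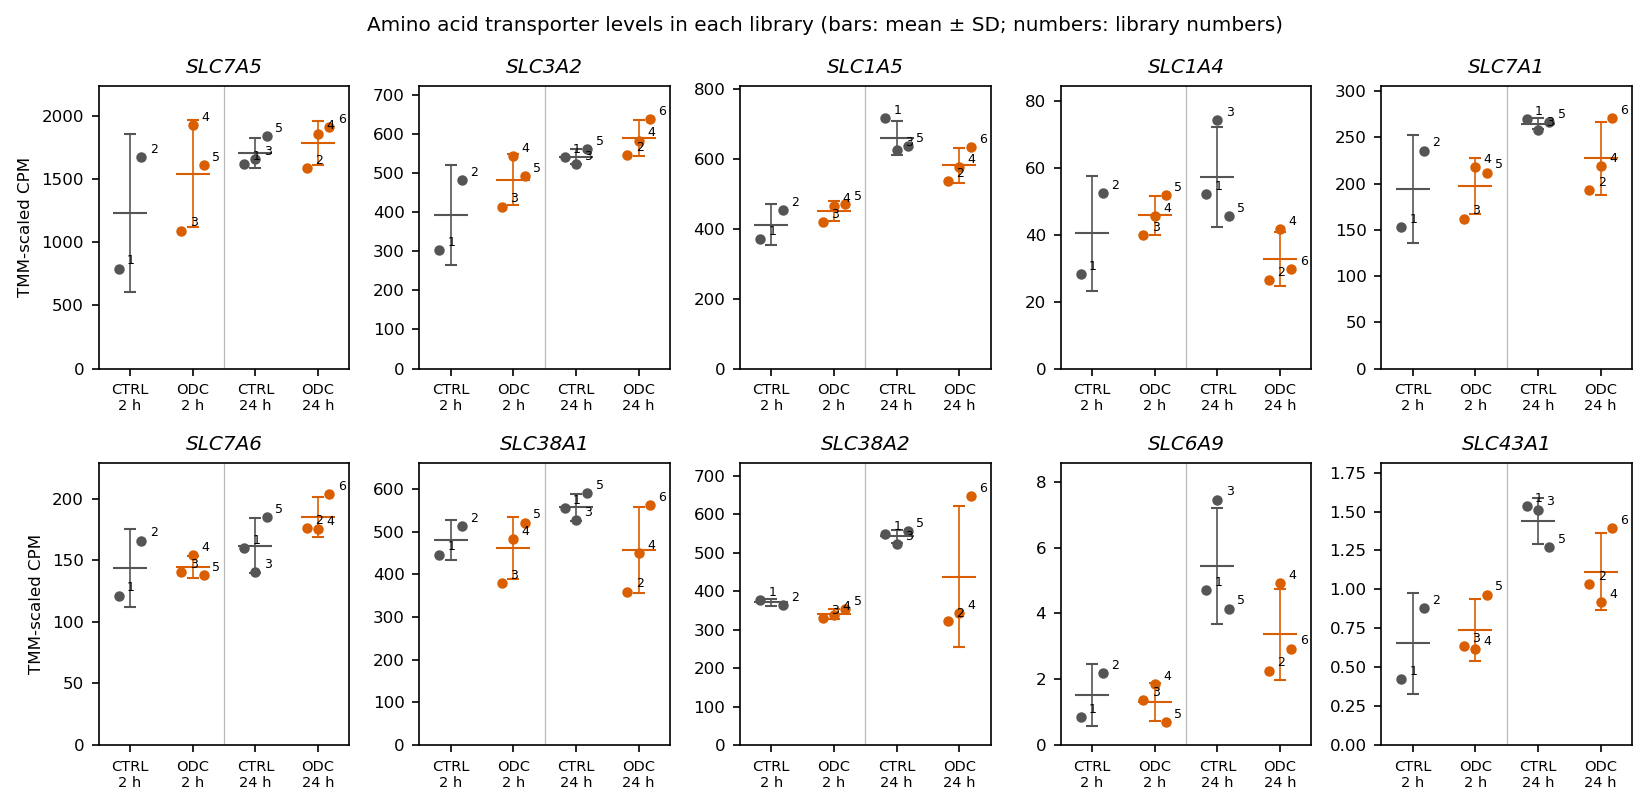
TMM-scaled CPM (vertical axes, from 0, each gene on its own scale) of the 10 carriers in each library of the 4 groups, with library numbers beside the points and bars for mean ± SD (n = 2 for CTRL at 2 h, otherwise n = 3). For SLC1A4 at 24 h the 3 ODC points, at 26.3, 29.8 and 41.7 CPM, lie below the 3 CTRL points, and for SLC38A2 ODC library 6 lies above all CTRL points.

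The alanine, serine and cysteine carrier SLC1A4 (ENSG00000115902.11, hg38 chromosome 2 from 64988477 to 65023865, plus strand, 8 exons) had the smallest p of the 10. It was at 52.1, 74.2 and 45.6 CPM in CTRL libraries 1, 3 and 5 and at 26.3, 41.7 and 29.8 CPM in ODC libraries 2, 4 and 6. All ODC libraries were lower than all CTRL libraries, a separation that 8.52% of all genes showed in this direction. The means were 57.3 ± 15 and 32.6 ± 8.08 CPM (SD, n = 3 each), a log2 fold change of -0.81 (standard error 0.23, 95% interval -1.34 to -0.29). The unadjusted p was 0.00693 and the adjusted p 0.202 in edgeR's quasi-likelihood test, so the difference did not pass the threshold over all genes. In bulk RNA a lower level in every cell and a smaller share of expressing cells cannot be told apart. With each library left out in turn the log2 fold change lay between -1.03 and -0.59. The edgeR likelihood ratio test (adjusted p = 0.0300) and DESeq2 (adjusted p = 0.0227) did call SLC1A4, at settings that called 3.16% and 2.98% of all genes.

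Its relative SLC1A5 exchanges glutamine and other neutral amino acids (ENSG00000105281.12, hg38 chromosome 19 from 46774883 to 46788594, minus strand). In CTRL libraries 1, 3 and 5 it was at 717, 627 and 637 CPM, and in ODC libraries 2, 4 and 6 at 536, 576 and 634 CPM. The groups overlapped through ODC library 6 alone. The log2 fold change was -0.18 (95% interval -0.42 to 0.056, edgeR quasi-likelihood adjusted p = 0.537).

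SLC7A5 (ENSG00000103257.9, hg38 chromosome 16 from 87830023 to 87869507, minus strand, 10 exons) was at 1617, 1655 and 1837 CPM in CTRL libraries 1, 3 and 5. In ODC libraries 2, 4 and 6 it was at 1586, 1858 and 1913 CPM. The lowest and the highest of the 6 libraries were both ODC. The log2 fold change was 0.068 with a 95% interval from -0.18 to 0.32 (edgeR quasi-likelihood adjusted p = 0.861).

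Its heavy chain SLC3A2, also known as CD98 (ENSG00000168003.19, hg38 chromosome 11 from 62856004 to 62888880, plus strand), was at 541, 524 and 561 CPM in CTRL and at 546, 583 and 638 CPM in ODC, in the same library order. ODC library 2 lay within the CTRL range. SLC3A2 had a log2 fold change of 0.12 (95% interval -0.094 to 0.34, edgeR quasi-likelihood adjusted p = 0.660). SLC7A6 encodes another light chain of SLC3A2, which exports arginine in exchange for neutral amino acids and sodium (hg38 chromosome 16 from 68264516 to 68301823, plus strand). It was at 160, 140 and 185 CPM in CTRL and at 177, 176 and 204 CPM in ODC. The groups overlapped, with a log2 fold change of 0.20 (95% interval -0.091 to 0.48, edgeR quasi-likelihood adjusted p = 0.585). An exon of SLC7A6 overlaps SLC7A6OS on the opposite strand, and whether the counting used strand is not given in the sources used here.

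SLC38A2, a sodium-coupled carrier of glutamine and alanine that amino acid shortage is known to induce (ENSG00000134294.14, hg38 chromosome 12 from 46358188 to 46372773, minus strand, 16 exons), differed in direction between the ODC libraries. CTRL libraries 1, 3 and 5 were at 548, 522 and 557 CPM. ODC libraries 2 and 4 were at 323 and 343 CPM, and ODC library 6 was at 648 CPM. The first pair was thus below every CTRL library and the last above every CTRL library. The log2 fold change over all 6 libraries was -0.31 (95% interval -0.88 to 0.26, edgeR quasi-likelihood adjusted p = 0.679). Without ODC library 6, it was -0.70 (95% interval -0.93 to -0.48, edgeR quasi-likelihood adjusted p = 0.0355), and SLC38A2 was then called, in a fit that called 70 genes or 0.545% of all genes. Without ODC library 2 or ODC library 4 it was -0.13 or -0.16.

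ODC libraries 2 and 4 were also the lowest in SLC38A1, the related glutamine carrier (hg38 chromosome 12 from 46183063 to 46270017, minus strand), and in SLC7A1, the carrier of arginine and lysine (ENSG00000139514.13, hg38 chromosome 13 from 29509414 to 29595688, minus strand). SLC38A1 was at 555, 527 and 591 CPM in CTRL and at 360, 450 and 562 CPM in ODC libraries 2, 4 and 6. SLC7A1 was at 270, 258 and 267 CPM in CTRL and at 193, 218 and 271 CPM in ODC. In both genes ODC library 6 was not below the CTRL libraries. SLC38A1 had a log2 fold change of -0.29 (95% interval -0.65 to 0.076, edgeR quasi-likelihood adjusted p = 0.522). SLC7A1 had a log2 fold change of -0.22 (95% interval -0.51 to 0.078, edgeR quasi-likelihood adjusted p = 0.556). Without ODC library 6 these were -0.46 (adjusted p = 0.149) and -0.36 (adjusted p = 0.154) in the same edgeR test, still short of the threshold. Of the 10 carriers, ODC library 6 was the highest of the 6 libraries in 5, compared with 20% of all genes, and ODC library 2 was the lowest in 7, compared with 11.4% of all genes.

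The glycine carrier SLC6A9 (hg38 chromosome 1 from 43991500 to 44031467, minus strand) was at 4.71, 7.46 and 4.15 CPM in CTRL and at 2.26, 4.92 and 2.93 CPM in ODC. Only ODC library 4 reached into the CTRL range. Its log2 fold change was -0.69 (standard error 0.34, 95% interval -1.48 to 0.092, edgeR quasi-likelihood adjusted p = 0.465). SLC43A1, a carrier of large neutral amino acids that needs no heavy chain (hg38 chromosome 11 from 57484534 to 57515780, minus strand), was at 1.54, 1.51 and 1.27 CPM in CTRL and at 1.03, 0.918 and 1.39 CPM in ODC. Here again ODC library 6 was the one that overlapped CTRL. The log2 fold change was -0.37 (95% interval -0.995 to 0.26, edgeR quasi-likelihood adjusted p = 0.650), at 17 to 32 counts per library.

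**Figure D2:**
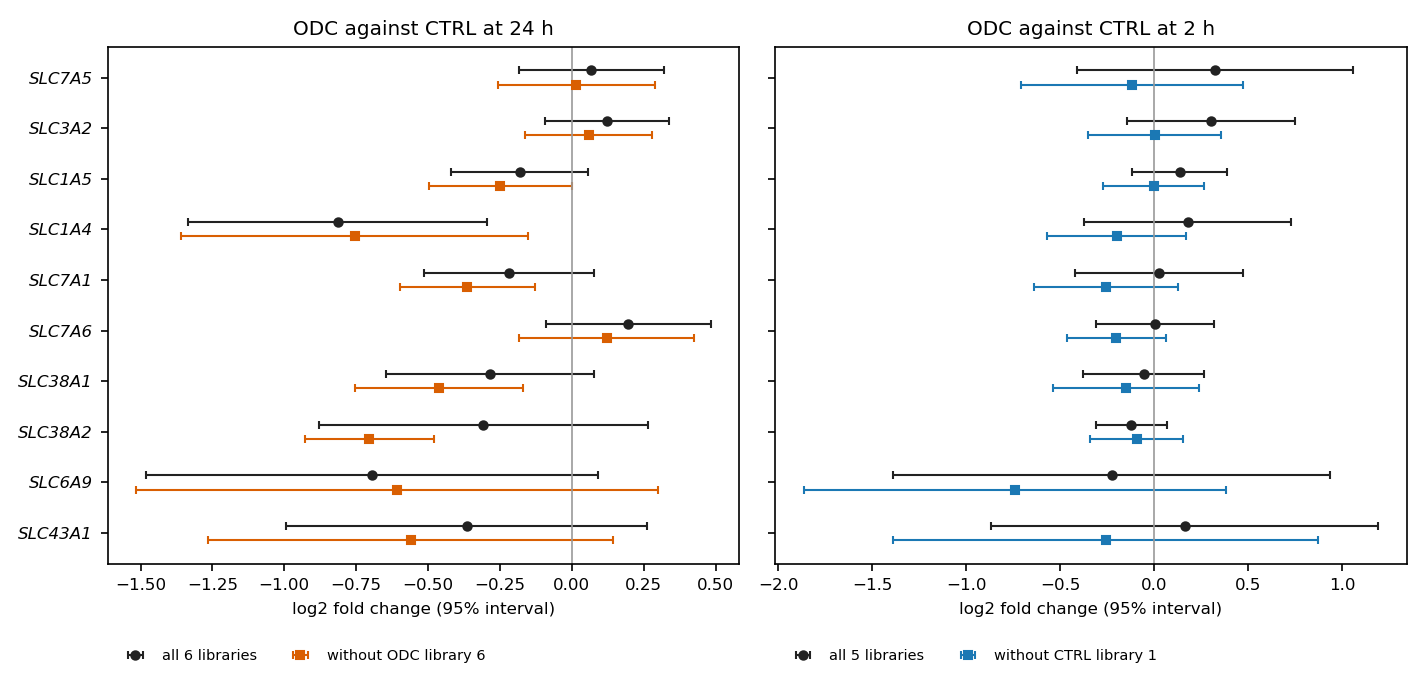
Log2 fold change of ODC against CTRL (horizontal axes) for the 10 carriers, with 95% intervals from edgeR's quasi-likelihood fit, at 24 h with all 6 libraries or without ODC library 6, and at 2 h with all 5 libraries or without CTRL library 1. At 24 h SLC1A4 is the one gene whose interval with all libraries excludes 0, and at 2 h the estimate of SLC7A5 moves from 0.32 to -0.12 without CTRL library 1.

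At 2 h, no carrier passed the adjusted threshold, and the direction of most estimates depended on single libraries, mainly CTRL library 1. SLC38A2 was the single carrier whose ODC libraries all lay below the CTRL libraries, as was so for 7.39% of all genes. The median log2 fold change of the 10 was 0.079 against -0.0060 over all 13332 genes, with 7 higher and 3 lower. edgeR's quasi-likelihood test called 0 of the 10 at an adjusted p under 0.05, where 0% of all genes were called, and 0 at an unadjusted p under 0.05, where 2.34% of all genes (312) passed. Neither edgeR's likelihood ratio test nor DESeq2 called any of the 10 at 2 h. CTRL library 1, the library with fibroblast and other extra transcripts, was the lowest of the 5 in 7 of the 10 carriers, compared with 23.7% of all genes. Without it 1 of the 10 estimates was positive and 9 negative, with a median of -0.18. Without CTRL library 2 instead, 9 were positive and 1 negative, with a median of 0.51. In either case the remaining CTRL library stood alone and was assumed to vary like the ODC libraries. The part of the fibroblast and other extra transcripts in these values was not tested.

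SLC7A5 was at 791 and 1675 CPM in CTRL libraries 1 and 2 and at 1091, 1927 and 1607 CPM in ODC libraries 3, 4 and 5. The ODC libraries thus lay above the first CTRL library and on both sides of the other. Its log2 fold change was 0.32 (95% interval -0.41 to 1.06), and it was -0.12 without CTRL library 1 and 0.98 without CTRL library 2. SLC3A2 was likewise lowest in CTRL library 1, at 302 and 482 CPM in CTRL and at 414, 543 and 493 CPM in ODC. Its log2 fold change of 0.30 (95% interval -0.15 to 0.75) was 0.0028 without CTRL library 1 and 0.69 without CTRL library 2. SLC1A4 was at 28.3 and 52.5 CPM in CTRL and at 39.9, 45.5 and 51.8 CPM in ODC, all between the CTRL libraries, with a log2 fold change of 0.18 (95% interval -0.37 to 0.73).

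In the 2 h libraries SLC38A2 was at 378 and 364 CPM in CTRL and at 330, 339 and 354 CPM in ODC, so the 3 ODC libraries were all lower by a small margin, and 7.39% of all genes showed such a separation in this direction. The log2 fold change was -0.12 (95% interval -0.31 to 0.065, unadjusted p = 0.172 and adjusted p = 1.00 in edgeR's quasi-likelihood test), and it remained negative with each library left out, between -0.15 and -0.094. For SLC1A5, SLC7A1, SLC7A6, SLC38A1, SLC6A9 and SLC43A1 the estimates at 2 h were 0.13, 0.023, 0.0059, -0.056, -0.23 and 0.16 on the log2 scale. The intervals were narrowest for SLC1A5, from -0.12 to 0.39, and widest for SLC6A9, from -1.39 to 0.93. SLC6A9 ranged from 0.690 to 2.19 CPM and SLC43A1 from 0.425 to 0.967 CPM over the 5 libraries.

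The change after ODC was also compared between the time points, as 24 h minus 2 h in a joint fit of all 11 libraries. Of the 10 carriers, 9 had a more negative and 1 a more positive estimate at 24 h, with a median difference of -0.26 against 0.0025 over all 13333 genes. These rested on the CTRL libraries at 2 h: without CTRL library 1 there were 5 of each and a median of -0.044, and without CTRL library 2 all 10 were negative with a median of -0.60. edgeR's quasi-likelihood test called 0 of the 10 at an adjusted p under 0.05 (0.015% of all genes) and 1 at an unadjusted p under 0.05 (5.93% of all genes). That gene was SLC1A4, with a difference of -1.01 on the log2 scale (95% interval -1.83 to -0.19, unadjusted p = 0.0201, adjusted p = 0.705). With each library left out the difference of SLC1A4 lay between -1.54 and -0.63. SLC7A6, the light chain of SLC3A2, was the gene with a positive difference, at 0.18 (95% interval -0.27 to 0.62). Without CTRL library 1 of the 2 h set, the differences of SLC7A5, SLC3A2, SLC7A1 and SLC6A9 turned positive, at 0.18, 0.11, 0.029 and 0.036.

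The carriers varied together in several pairs across libraries. Each library was expressed as log2 CPM minus the mean of its time point, and the values are descriptions over 11 libraries that share treatment and library effects, among 45 pairs. SLC7A5 and SLC3A2, the chains of LAT1, had the highest correlation of the 45, with Pearson's r of 0.96 and Spearman's rho of 0.90. Without the 2 libraries farthest from the median of SLC7A5, r was 0.86, and over the 6 libraries at 24 h it was 0.82. The next highest were SLC1A5 and SLC7A1, with r of 0.88 and rho of 0.82, and r of 0.89 at 24 h. SLC1A4 and SLC6A9, below several other pairs in this order, had r of 0.76 and rho of 0.68. Their r was 0.51 without the 2 farthest libraries and 0.97 over the 6 libraries at 24 h. SLC7A1 and SLC38A1 had r of 0.85 and rho of 0.62, with r of 0.90 without the 2 farthest and 0.98 at 24 h. Among the 12603 genes tested at both time points, the 5 most like SLC7A5 were SLC3A2 (r = 0.96), SART1 (0.95), MBD1 (0.93), TRIM28 (0.92) and ZMYND11 (0.92). The 5 most like SLC1A4 were LPIN1 (r = 0.96), ALDH1L2 (0.95), JDP2 (0.95), DIAPH3 (0.94) and GRB10 (0.94).

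**Figure D3:**
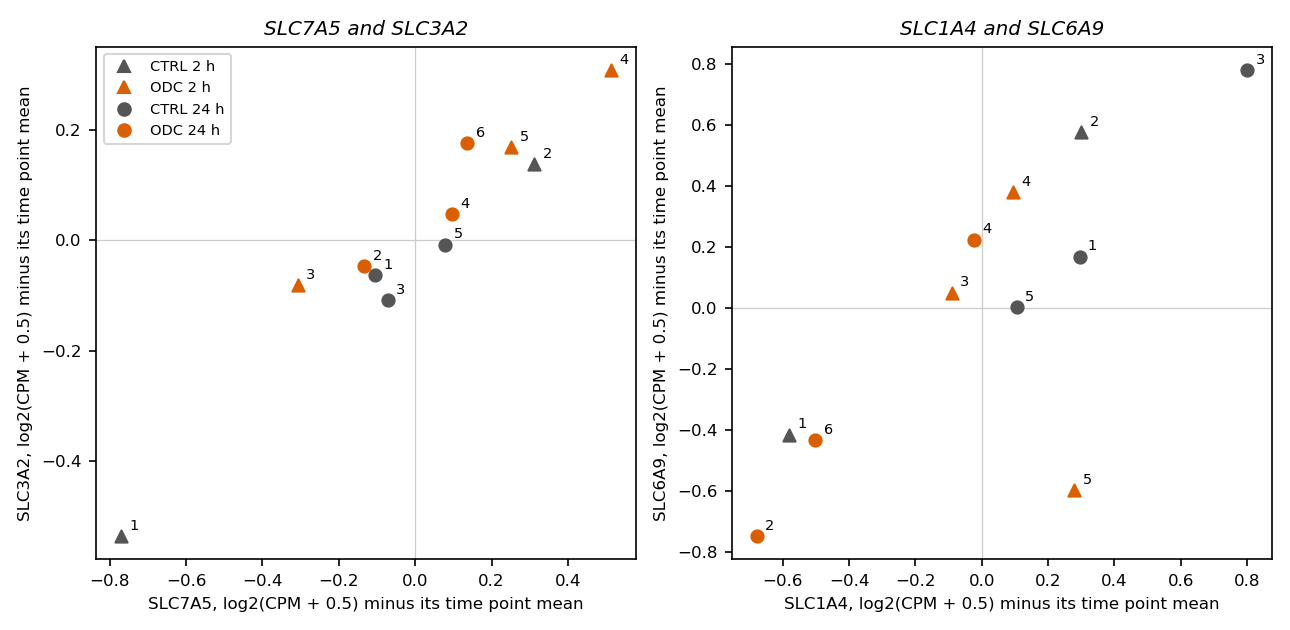
Level of SLC3A2 against SLC7A5 (left) and of SLC6A9 against SLC1A4 (right) in the 11 libraries, as log2(CPM + 0.5) minus the mean of the library's time point, with triangles for 2 h, circles for 24 h and library numbers beside the points. CTRL library 1 at 2 h lies lowest for both SLC7A5 and SLC3A2, and at 24 h the ODC libraries 2 and 6 lie lowest for both SLC1A4 and SLC6A9.

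The genes around the carriers were read from 5 lists, of which the GCN2-ATF4 response differed most from the median of all genes at 24 h. Of its 39 genes 38 were tested, with 29 lower and 9 higher, a median log2 fold change of -0.48 and an unadjusted p under 0.05 in 21 lower and 2 higher genes, where 5.04% of all genes were lower and 7.2% higher at that threshold. None of them passed the adjusted threshold in edgeR's quasi-likelihood test. The edgeR likelihood ratio test called 16 of the 38, 15 of them lower, where 3.16% of all genes were called. DESeq2 called 15, all lower, where 2.98% of all genes were called. The smallest p values belonged to GARS, the glycyl-tRNA synthetase, CARS, the cysteinyl-tRNA synthetase, and PSAT1, an enzyme of serine synthesis. GARS was at 716 ± 84.1 CPM in CTRL and 426 ± 27.2 CPM in ODC (SD, n = 3 each), with a log2 fold change of -0.75 (edgeR quasi-likelihood adjusted p = 0.0655). CARS was at 178 ± 31.9 and 94.6 ± 5.03 CPM, with a log2 fold change of -0.92 (edgeR quasi-likelihood adjusted p = 0.0655). PSAT1 was at 319 ± 60.9 and 170 ± 18.8 CPM, with a log2 fold change of -0.91 (edgeR quasi-likelihood adjusted p = 0.0859). ATF4 itself, named after its values were seen, was at 347, 352 and 274 CPM in CTRL and at 200, 186 and 215 CPM in ODC (log2 fold change -0.70, edgeR quasi-likelihood adjusted p = 0.0876). The 2 higher genes, also named after their values were seen, were the stress factor ATF3 and the cytokine gene GDF15, and in both ODC library 6 was far above the other libraries. ATF3 was at 10.4, 9.08 and 12.1 CPM in CTRL and at 22.3, 18 and 63.7 CPM in ODC libraries 2, 4 and 6. GDF15 was at 57.8, 39.2 and 62.9 CPM in CTRL and at 94.8, 44.6 and 218 CPM in ODC, with ODC library 4 inside the CTRL range.

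Of 35 other plasma membrane carriers of amino acids, 13 were expressed highly enough to be tested at 24 h, with 8 higher, 5 lower and a median log2 fold change of 0.026. SLC43A2, a carrier of large neutral amino acids related to SLC43A1, was at 1.13 ± 0.636 CPM in CTRL and 4.00 ± 0.684 CPM in ODC (SD, n = 3 each) (log2 fold change 1.83, edgeR quasi-likelihood adjusted p = 0.121). The glutamate carrier SLC1A3 had a log2 fold change of -0.56 and the taurine carrier SLC6A6 0.78, with adjusted p of 0.184 and 0.282 in the same edgeR test. The cystine carrier SLC7A11, named after its values were seen, was at 75.4, 87.8 and 76.1 CPM in CTRL and at 41.1, 30.2 and 197 CPM in ODC libraries 2, 4 and 6. ODC library 6 thus again stood on the other side of CTRL from ODC libraries 2 and 4, as it did for SLC38A2.

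The 3 remaining lists lay close to the median of all genes at 24 h. Among 19 tested carriers of lysosomes and mitochondria, the median was 0.12 (14 higher, 5 lower), with log2 fold changes of -0.40 for the serine carrier SFXN3, 0.52 for MFSD12 and -0.45 for the aspartate and glutamate carrier SLC25A12. Among 40 tested genes of amino acid sensing and mTORC1, the median was 0.055 (24 higher, 16 lower), with log2 fold changes of 0.41 for FLCN, 0.66 for SESN1 and 0.31 for AKT1S1. Among 27 tested enzymes of glutamine, glutamate and branched-chain amino acids, the median was -0.050 (12 higher, 15 lower). Glutamate dehydrogenase GLUD1 had a log2 fold change of -0.36 and the transaminase BCAT1 of -0.61. No gene of these lists or of the other carriers passed an adjusted p under 0.05 in edgeR's quasi-likelihood test, and the smallest adjusted p among those named in this paragraph was 0.131, for SFXN3.

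**Figure D4:**
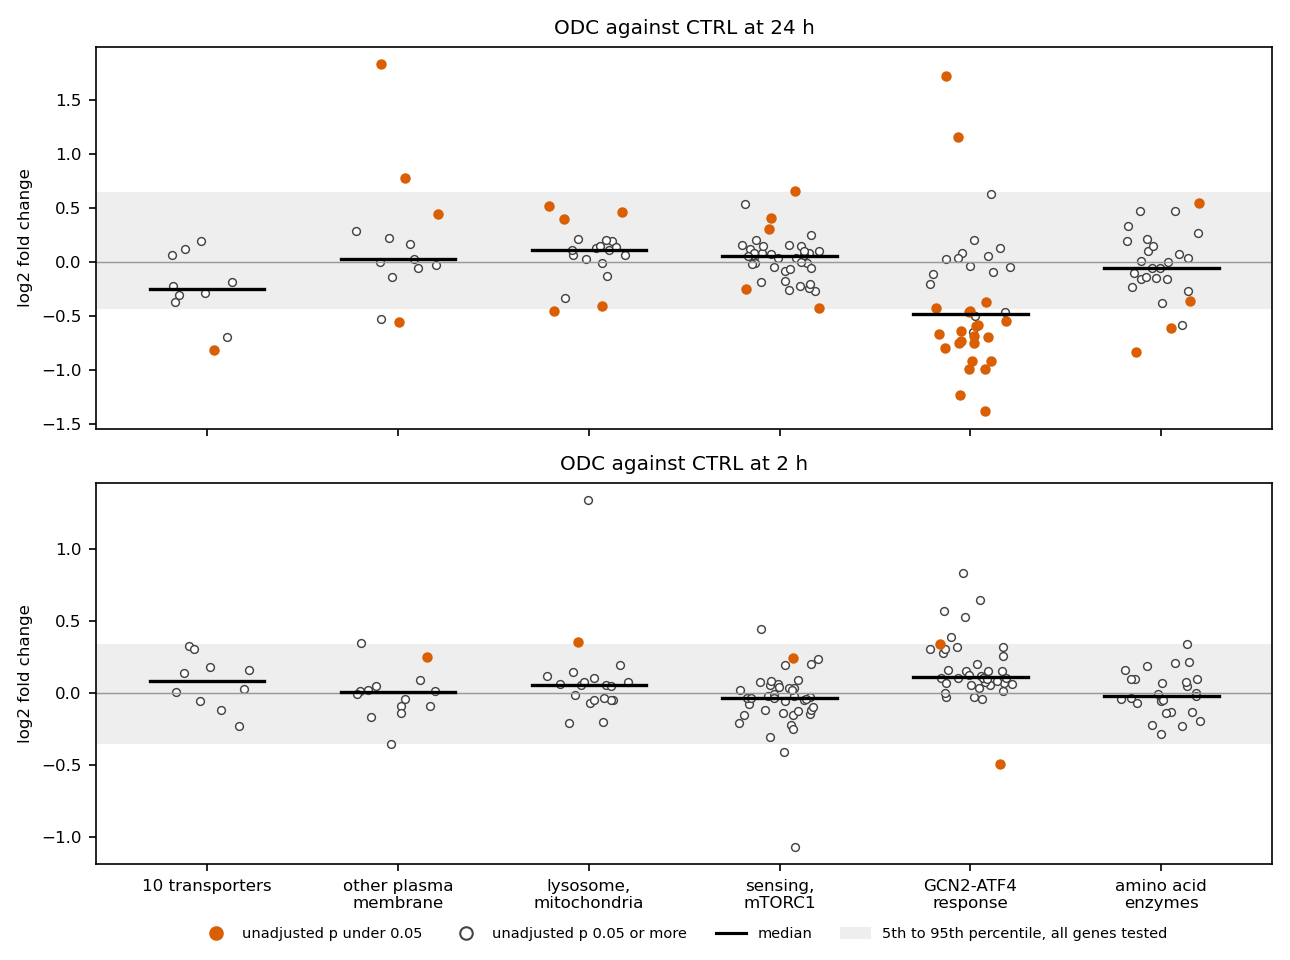
Log2 fold change of ODC against CTRL (vertical axes) at 24 h and 2 h for the 10 carriers and the tested genes of the 5 lists, each point a gene, filled where the unadjusted p was under 0.05, with a bar at the median and a grey band for the 5th to 95th percentile of all genes tested. At 24 h the GCN2-ATF4 list has its median at -0.48 and the 10 carriers at -0.25, while the other 4 lists lie between -0.050 and 0.12.

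At 2 h no gene of the 5 lists passed an adjusted p under 0.05, and the adjusted p of every named gene was 1.00 in edgeR's quasi-likelihood test. The GCN2-ATF4 list had 33 of 38 genes higher and a median of 0.11, which was -0.069 without CTRL library 1 and 0.35 without CTRL library 2. Its genes of smallest p were CBS at -0.49, CEBPB at 0.34 and NUPR1 at 0.52 on the log2 scale. The other plasma membrane carriers had a median of 0.0019 over 14 tested genes, with SLC38A10 at 0.25, SLC38A6 at -0.36 and SLC36A4 at -0.14. Lysosomal and mitochondrial carriers had a median of 0.053 over 20 genes, with MFSD12 at 0.35, SLC15A3 at 1.34 and SLC36A1 at -0.20. The sensing genes had a median of -0.035 over 40 genes, with MLST8 at 0.24 and LAMTOR5 at -0.22, and the enzymes a median of -0.026 over 27 genes, with BCKDHA at 0.19, BCAT2 at 0.21 and SRR at -0.29.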

How the data were processed

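Stranded mRNA libraries of Caki-1-SR clone 1 were sequenced as single-end reads, aligned with STAR to hg38 and counted per gene with HTSeq 0.9.1 by the authors, who deposited raw counts for 26485 gene symbols in a table per time point, without normalization. The submitters' processing notes name STAR 2.7.0f and edgeR 3.26.8. The annotation and the strand setting of the counting are not given in the sources used here.

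Counts were fitted per time point with edgeR 4.0.16 (R 4.3.3), TMM factors, filterByExpr (minimum count 10, minimum total 15) and the earlier quasi-likelihood method, two-sided, with Benjamini-Hochberg adjustment over all genes tested. The detection floor, 3 counts, equals 0.144 to 0.166 CPM in 24 h libraries (2 h libraries, 0.0953 to 0.116 CPM) and covers counting error only. The labels do not state that libraries came from separate cultures. The p-values set each difference against the spread between these libraries, moderated over all genes, and that spread may be technical. Replicate libraries differed from each other and each was counted as 1 sample. Positions and lengths are from GENCODE release 44. SLC7A5 has near-identical pseudogenes, SLC7A5P1 and SLC7A5P2 (6 to 32 counts per library), and its reads could be assigned to them or left uncounted. How reads that match several places were handled is not given in the sources used here. Exons of SLC7A5, SLC1A5, SLC7A6 and SLC6A9 overlap genes on the opposite strand.

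The 10 carriers, the lists and the markers were chosen with earlier results of these data known. Named genes are all 10 carriers, for each list and time point the genes with an adjusted p under 0.05 (at most 5) or else the 3 of smallest p, and the 5 genes most correlated with SLC7A5 and with the carrier of smallest p at 24 h. Alternatives covered scaling, filters, other edgeR tests, DESeq2 1.42.0, a joint fit and each library left out. Figures used matplotlib 3.10.9. The procedures were tested on simulated data. Results for some single genes that the rule names are not reported here.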

Additional observations from a re-analysis of the deposited data

How the results depend on the processing

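At 24 h the 10 carriers kept their directions under all 17 alternatives. The count of carriers called was 0 except for 1 (SLC1A4) with edgeR's likelihood ratio test, 1 (SLC1A4) with DESeq2 and 1 (SLC38A2) without ODC library 6, a range of 0 to 1 with a library left out. Genes of the 5 lists called at 24 h numbered 5 when all genes with 1 or more counts were tested, where 0.522% of all genes were called. They numbered 21 with the likelihood ratio test (3.16% of all genes), 22 with DESeq2 (2.98%) and 6 with the joint fit (1.4%). With a library left out they ranged from 0 to 3, with 1 without CTRL library 5 and 3 without ODC library 6. At 2 h they ranged from 0 to 4, with 4 without CTRL library 2. All reversals of a carrier's log2 fold change came from leaving out a library. At 2 h the log2 fold changes then ranged from -0.12 to 0.98 for SLC7A5, from -0.0035 to 0.30 for SLC1A5, from -0.20 to 0.71 for SLC1A4, from -0.26 to 0.39 for SLC7A1, from -0.20 to 0.27 for SLC7A6, from -0.26 to 0.80 for SLC43A1, from -0.15 to 0.066 for SLC38A1 and from -0.74 to 0.63 for SLC6A9. The differences between time points ranged from -0.92 to 0.18 for SLC7A5, from -0.59 to 0.11 for SLC3A2, from -0.62 to 0.029 for SLC7A1, from -1.34 to 0.036 for SLC6A9 and from -0.083 to 0.39 for SLC7A6. The cause was not tested. List medians near 0 also changed sign under some settings. At 24 h the median of the other plasma membrane carriers was -0.12 without ODC library 6 and -0.0021 with library size only. That of the enzymes was 0.0023 with all genes of 1 or more counts. At 2 h the plasma membrane carriers' median of 0.0019 turned negative under most alternatives. Over all genes, the number called at 24 h with a library left out ranged from 2 to 70. SLC43A1 gave no value at 2 h with a filter of more than 1 CPM. No paired analysis was possible because the labels give the groups no shared replicate number. An effect shared by a CTRL and an ODC library, such as a common batch, was therefore not modelled in the p-values and intervals.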
